A study of Rattus norvegicus with 8 samples.

Results

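The genes described here encode enzymes that break down monoamines and the amino acids proline, GABA, glutamate and glycine, reactions that astrocytes carry out in nervous tissue. Of 8 genes in the set (Maob, Maoa, Prodh, Aldh4a1, Abat, Glud1, Glul and Gldc), 6 had an array feature annotated with that symbol alone, out of 14506 genes measured that way. The feature of Aldh4a1 is annotated with a second gene and no single-symbol feature names Glul, so both are not analysed here. Each of the other 6 has 1 feature. The set was selected on measured values: Maob and Prodh were among the genes lowest with FGF9 at 24 h in these same arrays, and their enzymatic relatives were added. The differences between FGF9 and control are therefore given as a description, without a test.

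The arrays came from rat (Sprague Dawley) myelinating cultures, mixed cultures of embryonic spinal cord in which oligodendrocytes wrap axons. They were FGF9 cultures at 24 h, control cultures at 24 h, FGF9 cultures at 10 days and control cultures at 10 days, with 2 arrays in each of these 4 groups. FGF9 cultures received 100 ng/ml of human fibroblast growth factor 9, which signals through FGF receptors, and control cultures were untreated. The titles and cell type labels name myelinating cultures, whereas the source field of the same samples names neurosphere-derived astrocytes, which the growth protocol describes preparing from striatum. Nothing in the labels says that replicates were separate cultures, so p-values measure only the spread between these arrays, which may be technical.

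Values are on a log2 scale, so a difference of 1 is a doubling. Array medians lay between 6.62 and 6.73. FGF9 and control arrays of the same replicate number share a name prefix and are called a pair. The prefix CL1 belongs to the first pair at 24 h and AA1 to the second at 10 days. CL2 belongs to both of the remaining pairs, the second at 24 h and the first at 10 days. The AA1 arrays stood apart, with a correlation of 0.968 with each other and 0.897 to 0.939 with the other arrays, which correlated at 0.962 to 0.989 among themselves. Above the array median on all 8 arrays were 13 of 15 measured astrocyte markers (all but Aldh1l1 and Gjb6), 9 of 13 myelin and oligodendrocyte markers and 12 of 12 neuron markers. So were 8 of 10 microglia, 5 of 6 oligodendrocyte precursor and 5 of 10 fibroblast, pericyte and meningeal markers. Fewer were 1 of 4 Schwann cell, 1 of 7 ependymal and 0 of 6 endothelial markers. The share of all genes above that median on all arrays was not counted. These counts describe the signal on the arrays and do not settle which label holds.

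As background, monoamine oxidases sit on the outer mitochondrial membrane and oxidize amines to aldehydes with release of hydrogen peroxide. MAO-B is the form characteristic of astrocytes and serotonergic neurons, and MAO-A that of catecholaminergic neurons. Proline dehydrogenase, GABA transaminase and glutamate dehydrogenase are mitochondrial enzymes that feed carbon from proline, GABA and glutamate into the citric acid cycle. The glycine cleavage system passes a carbon of glycine to folate, and astrocytes are its main site in brain.

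Maob, which encodes the monoamine oxidase that prefers phenylethylamine and benzylamine, had log2 levels of 9.15 and 9.25 in FGF9 cultures at 24 h, against 10.54 and 11.13 in control cultures at 24 h. At 10 days its levels were 10.89 and 10.59 in FGF9 cultures, against 11.99 and 11.98 in control cultures. The FGF9 arrays lay below the control arrays at both times without overlap. The log2 difference between FGF9 and control was -1.40 and -1.88 in the 2 pairs at 24 h, with a mean of -1.64 ± 0.25 (SE, n = 2 per group), which is 3.11-fold lower. At 10 days it was -1.10 and -1.38, with a mean of -1.24 ± 0.25 (SE, n = 2 per group), which is 2.37-fold lower. Each SE given is limma's, from a spread pooled over all groups and moderated across genes, so it is equal at both times. The FGF9 cultures at 10 days lay within the range of the control cultures at 24 h, and the control cultures at 10 days were the highest of all 8 arrays.

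Maoa encodes the other monoamine oxidase, which prefers serotonin and noradrenaline. Its levels were 10.45 and 10.78 in FGF9 cultures at 24 h, against 10.71 and 11.01 in control cultures. At 10 days they were 11.27 and 10.48 in FGF9 cultures, against 11.31 and 10.38 in control cultures. The groups overlapped at both times, and at 10 days the AA1 arrays were the lowest of either group. Within pairs the difference was -0.26 and -0.23 at 24 h, and -0.04 and 0.10 at 10 days. The mean differences were -0.25 ± 0.40 at 24 h and 0.03 ± 0.40 at 10 days (SE, n = 2 per group). With the name prefix fitted as a block, the SE of both was 0.13. Within pairs, the difference of Maob lay below that of Maoa by more than 1 log2 unit in every case: the gap was -1.13 and -1.65 at 24 h and -1.07 and -1.48 at 10 days. Maob was thus the lower of these genes relative to its control in all 4 pairs of arrays.

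The genes of both oxidases are neighbours on chromosome X with 0 protein-coding genes between them. Their promoters are shown because the genes share a locus and differ in their values. Each window runs 5′ to 3′ on the gene's own strand, from 250 bases before to 50 bases after the start of the gene, in RefSeq's annotation of GRCr8. The last 50 bases of the Maoa window begin with ATG, as a coding sequence does, and those of Maob do not. Whether both windows sit alike relative to the start of transcription was not checked. The Maob window is chrX:8490155-8490454 on the plus strand and the Maoa window chrX:8681323-8681622 on the minus strand. Capitals mark GC boxes, the letters GGGCGG or, on the other strand, CCGCCC.
Maob: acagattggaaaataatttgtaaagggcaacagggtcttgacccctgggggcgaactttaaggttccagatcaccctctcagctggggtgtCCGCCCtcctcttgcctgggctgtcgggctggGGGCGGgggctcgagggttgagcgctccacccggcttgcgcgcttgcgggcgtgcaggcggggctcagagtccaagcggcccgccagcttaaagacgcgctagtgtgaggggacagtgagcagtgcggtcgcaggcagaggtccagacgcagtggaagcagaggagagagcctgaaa
Maoa: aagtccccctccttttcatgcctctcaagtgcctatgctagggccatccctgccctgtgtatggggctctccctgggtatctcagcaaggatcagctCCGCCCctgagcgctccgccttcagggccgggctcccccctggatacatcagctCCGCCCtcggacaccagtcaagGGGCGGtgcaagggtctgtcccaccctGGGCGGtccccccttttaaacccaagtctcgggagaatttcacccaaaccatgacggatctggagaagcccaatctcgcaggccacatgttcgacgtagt
The Maob window holds 2 GC boxes and the Maoa window 4. GC boxes are bound by Sp1-family factors and are known from the human promoters of both genes. At least 1 GC box is present in 33.1% of 33469 rat promoter windows of the same length, and 3 or more in 8.97%. The share of G and C letters is 63% in the Maob window and 61% in the Maoa window, beside a median of 51.7%. The windows of Glud1 and Gldc, the other enzymes of the set with an entry, hold 2 each. Of the other motifs searched on both strands, the AP-1 site TGANTCA (7.33% of all windows), the E-box CACGTG (6.42%) and the STAT site TTCNNNGAA (8.87%) were in none of these 4 windows. The ETS site CCGGAA (15% of all windows) was in the Glud1 window alone, once. None of these motifs contains another, and a match or its absence describes letters in these windows only.

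Prodh encodes proline dehydrogenase, which catalyses the first and rate-limiting step of proline breakdown. Its log2 levels were 7.25 and 6.92 in FGF9 cultures at 24 h, against 8.52 and 8.79 in control cultures. At 10 days they were 7.40 and 7.94 in FGF9 cultures, against 9.29 and 8.91 in control cultures. All 4 FGF9 arrays lay below all 4 control arrays, across times as well as within them. The differences were -1.26 and -1.87 in the pairs at 24 h, with a mean of -1.57 ± 0.27 (SE, n = 2 per group), which is 2.96-fold lower. They were -1.89 and -0.97 at 10 days, with a mean of -1.43 ± 0.27 (SE, n = 2 per group), which is 2.69-fold lower. Prodh and Maob had nearly equal differences within each pair at 24 h, with Prodh minus Maob at 0.13 and 0.01. At 10 days they parted in opposite directions, at -0.79 in pair 1 and 0.41 in pair 2.

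Abat encodes GABA transaminase, which removes the amino group of GABA. Its log2 levels were 10.53 and 10.34 in FGF9 cultures at 24 h, against 10.92 and 11.05 in control cultures. At 10 days they were 9.99 and 11.42 in FGF9 cultures, against 10.84 and 11.96 in control cultures. The groups were apart at 24 h and overlapped at 10 days, where both AA1 arrays exceeded their CL2 counterparts. Each FGF9 array was below its own control: the differences were -0.39 and -0.71 at 24 h and -0.85 and -0.54 at 10 days. The means were -0.55 ± 0.54 at 24 h and -0.69 ± 0.54 at 10 days (SE, n = 2 per group). With the prefix as a block, which removes the gap between CL2 and AA1, the SE of both was 0.16. The mean at 10 days depends on the balance of prefixes and was 0.02 without the first FGF9 array at that time.

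Glud1 encodes glutamate dehydrogenase, which converts glutamate to 2-oxoglutarate. Its levels were 12.47 and 12.04 in FGF9 cultures at 24 h, against 12.65 and 12.57 in control cultures. At 10 days they were 12.73 and 12.07 in FGF9 cultures, against 12.80 and 12.16 in control cultures. The FGF9 arrays lay below the control arrays at 24 h, and the groups overlapped at 10 days. Differences were -0.19 and -0.54 in the pairs at 24 h (mean -0.36 ± 0.33) and -0.07 and -0.09 at 10 days (mean -0.08 ± 0.33, SE, n = 2 per group). With the prefix as a block, the SE of both means was 0.15.

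Gldc encodes the glycine decarboxylase of the glycine cleavage system. Its levels were 9.34 and 9.42 in FGF9 cultures at 24 h, against 9.86 and 10.14 in control cultures. At 10 days they were 9.71 and 10.37 in FGF9 cultures, against 10.23 and 10.31 in control cultures. The arrays of FGF9 and control cultures were apart at 24 h and overlapped at 10 days. Differences were -0.52 and -0.71 at 24 h, with a mean of -0.61 ± 0.26, and -0.52 and 0.06 at 10 days, with a mean of -0.23 ± 0.26 (SE, n = 2 per group). The pairs at 10 days thus disagreed for Gldc, with the CL2 pair lower in FGF9 cultures and the AA1 pair nearly level.

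**Figure D1:**
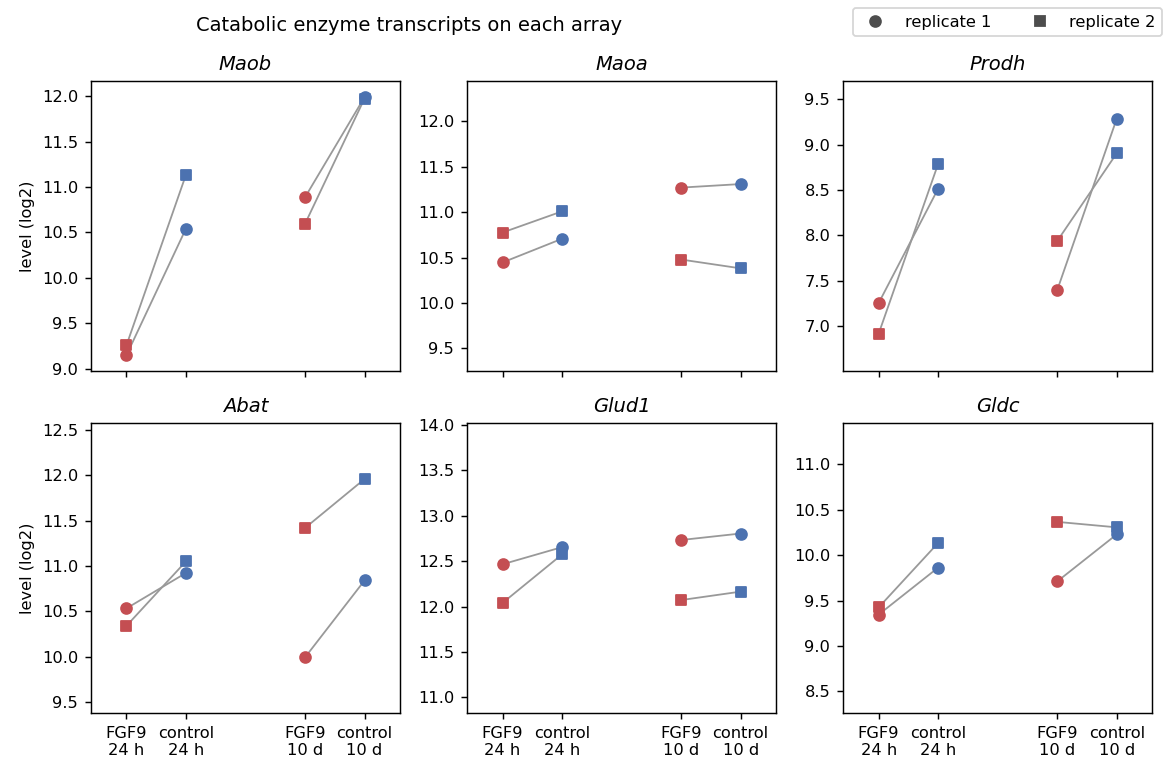
Log2 level (vertical axis) of the 6 measured enzymes on each of the 8 arrays, with FGF9 cultures left of control cultures at 24 h and at 10 days. Circles are replicate 1, squares replicate 2, and lines join the arrays of a pair. Maob and Prodh are lower in FGF9 cultures without overlap at both times, whereas the Maoa groups overlap at both.

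The enzymes fell into an order by the size of the difference at 24 h, from Maob (-1.64) and Prodh (-1.57) through Gldc (-0.61), Abat (-0.55) and Glud1 (-0.36) to Maoa (-0.25). At 10 days the order was Prodh (-1.43), Maob (-1.24), Abat (-0.69), Gldc (-0.23), Glud1 (-0.08) and Maoa (0.03). In each of the 4 pairs of arrays Maob and Prodh were lower than the other 4 enzymes, an order that the choice of those genes partly fixed. Every enzyme was lower in both pairs by any amount at 24 h, as were 32.9% of all 14506 genes, and 4 of the 6 at 10 days, as were 30% of all genes. A size rule of more than 0.5 log2 units in both pairs took 3 of the 6 as lower at 24 h (Maob, Prodh and Gldc), where 1.93% of all genes met it. It took 3 of the 6 as lower at 10 days (Maob, Prodh and Abat), where 5.14% of all genes met it. Gldc at 24 h, at -0.52 in pair 1, and Abat at 10 days, at -0.54 in pair 2, lay just inside this bound, and Abat at 24 h, at -0.39 in pair 1, lay outside it. None of the 6 was higher by that rule, against 2.36% of genes at 24 h and 5.17% at 10 days. Both FGF9 arrays lay below both control arrays for 5 of the 6 at 24 h, as for 14.5% of all genes, and for 2 of the 6 at 10 days, as for 11.3% of all genes. Since the set was chosen on this contrast, nothing is read from these shares.

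**Figure D2:**
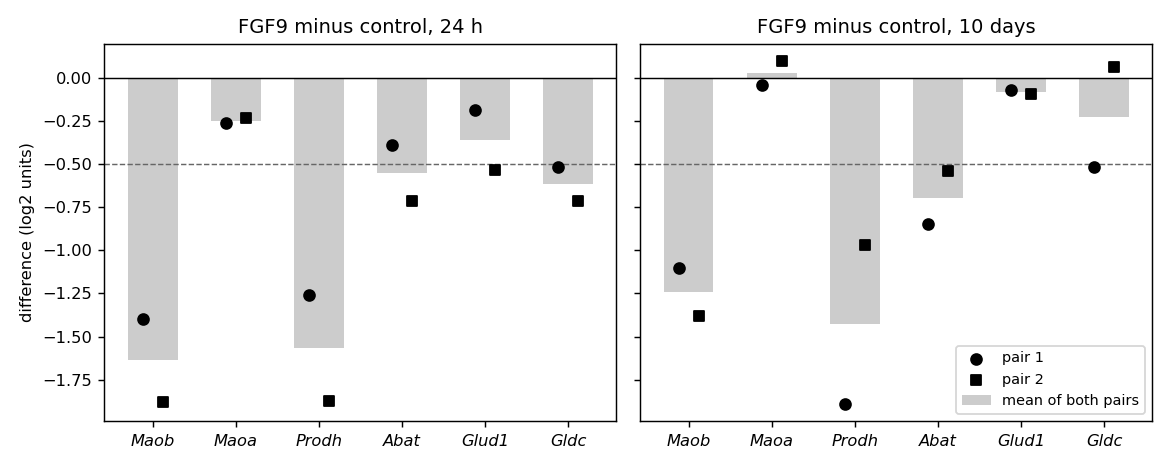
FGF9 minus control in log2 units (vertical axis) for each enzyme at 24 h (left) and 10 days (right). Circles are pair 1, squares are pair 2, bars are the mean of both pairs and the dashed line is the 0.5 log2 bound. Maob and Prodh are near or beyond -1 in every pair, while Maoa stays between -0.26 and 0.10.

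The limma fit over all genes without a block called 0% of genes at 24 h and 0% at 10 days (adjusted p under 0.05), with 280 and 816 genes at an unadjusted p under 0.05. With the prefix as a block, limma called 0% lower and 0% higher at 24 h, with 1800 genes at an unadjusted p under 0.05. At 10 days the block fit called 933 genes, 3.31% lower and 3.12% higher. Without the AA1 pair, it called 237 genes at 24 h and 569 at 10 days. No call of the 6 enzymes is given here, because they were chosen on these contrasts.

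Several of these enzymes are enriched in astrocytes, so astrocyte markers were examined beside them. In bulk samples, fewer cells of a type and less RNA per cell cannot be told apart. At 24 h, 14 of 15 astrocyte markers were lower in FGF9 cultures in both pairs, as were 32.9% of all genes, with a median difference of -0.57 and a range of -1.42 to 0.15, beside a median of -0.00 over all genes. At 10 days 3 of 15 were lower in both pairs, as were 30% of all genes, the median was 0.24 and the range -0.87 to 1.29, beside a median of 0.02 over all genes. By mean difference no marker was as low as Maob or Prodh at either time, an order that the choice of Maob and Prodh partly fixed. Within pair 1 at 10 days Gjb6, a connexin gene, was at -1.56 and Maob at -1.10. The summed linear level of the 15 markers, in log2, was 15.51 and 15.12 in FGF9 cultures at 24 h, against 16.03 and 15.98 in control cultures. At 10 days it was 16.19 and 16.58 in FGF9 cultures, against 16.30 and 16.30 in control cultures. The part of astrocyte number or state in the values of the enzymes was not tested at either time.

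Gfap, the intermediate filament of astrocytes, differed by -1.26 ± 0.38 at 24 h, with -0.76 and -1.75 in the pairs, and by -0.18 ± 0.38 at 10 days, with -0.61 and 0.25 (SE, n = 2 per group). Aqp4, the water channel of astrocyte endfeet, differed by -1.30 ± 0.42 at 24 h and -0.44 ± 0.42 at 10 days. The lowest marker at 24 h, named after its values were seen, was S100b at -1.42, a calcium-binding protein gene. Other lists also differed. The myelin and oligodendrocyte median was -0.59 at 24 h and 0.16 at 10 days, and the neuron median -0.22 and -0.90. At each time 11 of 12 neuron markers were lower in both pairs, beside 32.9% and 30% of all genes. At 24 h so were 11 of 13 myelin, 9 of 10 fibroblast, pericyte and meningeal and 6 of 7 ependymal markers. Of the remaining lists, 3 of 10 microglia, 2 of 4 Schwann cell, 1 of 6 endothelial and 1 of 6 oligodendrocyte precursor markers were. The summed linear level of the myelin list, in log2, was 14.86 and 13.14 in FGF9 cultures at 24 h, against 15.28 and 13.89 in control cultures. The ependymal list (7 genes) had medians of -0.48 and -0.69 at 24 h and 10 days, the fibroblast, pericyte and meningeal list (10 genes) -0.29 and -0.27, the microglia list (10 genes) -0.08 and -0.09, the Schwann cell list (4 genes) -0.13 and 0.16, the endothelial list (6 genes) 0.07 and -0.10, and the oligodendrocyte precursor list (6 genes) 0.20 and 0.72. For microglia the pair medians had opposite signs, at -0.42 and 0.20 at 24 h and at -0.65 and 0.33 at 10 days. The fibroblast, pericyte and meningeal list had pair medians of -0.56 and 0.22 at 10 days. Pair medians also differed in sign for the Schwann cell list at both times. At 10 days they did so for the endothelial, myelin and astrocyte lists. Mbp, the myelin basic protein gene, differed by -0.33 ± 0.85 at 24 h and 0.26 ± 0.85 at 10 days (SE, n = 2 per group).

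**Figure D3:**
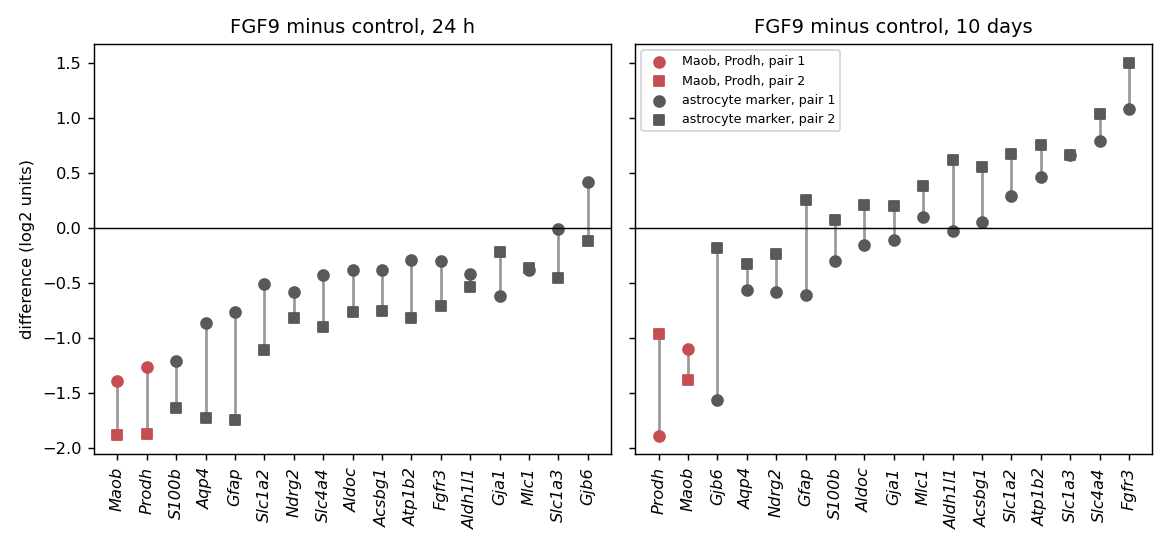
FGF9 minus control in log2 units (vertical axis) for Maob and Prodh (red) and the 15 astrocyte markers (grey) at 24 h (left) and 10 days (right), ordered by the mean, with circles for pair 1, squares for pair 2 and lines joining them. Marker means range from -1.42 to 0.15 at 24 h and from -0.87 to 1.29 at 10 days, with the means of Maob and Prodh below all of them at both times.

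The difference between times was not itself used to choose the enzymes. The FGF9 and control arrays at 24 h, which enter it, did choose Maob and Prodh, so for those genes it is given as a description in both treatments. In FGF9 cultures, the log2 level of Maob was 1.54 ± 0.25 higher at 10 days than at 24 h (SE, n = 2 per group), and 1.44 ± 0.21 higher with the prefix as a block. In control cultures Maob was 1.14 ± 0.25 higher at 10 days than at 24 h, and 1.05 ± 0.21 higher with the block. Within each treatment both arrays at 10 days lay above both arrays at 24 h. Within CL2, the 1 prefix present at both times, the difference was 1.63 in FGF9 cultures and 0.86 in control cultures. The block fit takes the level between times, averaged over both treatments, from CL2 alone, a single array per group. Its estimate per treatment also uses the FGF9 differences of all pairs. Its SE comes from how pairs within a time disagree and does not measure spread between cultures over time.

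Prodh was 0.58 ± 0.27 higher at 10 days than at 24 h in FGF9 cultures and 0.44 ± 0.27 higher in control cultures (SE, n = 2 per group). None of the other 4 enzymes passed limma's test between times with or without the block. In FGF9 cultures the difference between 10 days and 24 h was 0.65 ± 0.26 for Gldc, 0.27 ± 0.54 for Abat, 0.26 ± 0.40 for Maoa and 0.15 ± 0.33 for Glud1 (SE, n = 2 per group). In control cultures it was 0.41 ± 0.54 for Abat, 0.27 ± 0.26 for Gldc, -0.01 ± 0.40 for Maoa and -0.13 ± 0.33 for Glud1. With the block the differences in FGF9 cultures were 0.60 ± 0.18 for Glud1 (limma adjusted p of 0.0907; range over alternatives 0.0802 to 0.999), 0.54 ± 0.16 for Maoa (limma adjusted p of 0.0921; range 0.0918 to 0.999), 0.38 ± 0.22 for Gldc and -0.35 ± 0.19 for Abat. In control cultures they were 0.32 ± 0.18 for Glud1, 0.26 ± 0.16 for Maoa, -0.00 ± 0.22 for Gldc and -0.21 ± 0.19 for Abat. The block thus turned the sign of Abat in both treatments and that of Glud1, Maoa and Gldc in control cultures. Without a block limma called 0% of genes in both time contrasts, with 1430 genes in FGF9 cultures and 415 in control cultures at an unadjusted p under 0.05. With the block it called 6.07% lower and 4.88% higher in FGF9 cultures, and 0.00689% lower (1 gene, Stra6) and 0% higher in control cultures.

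The genes most like Maob and Prodh were taken by Pearson's r over the 8 arrays among 3940 genes with an SD of at least 0.5. The closest to Maob were Gstm7 (r = 0.967), a glutathione transferase, Ntsr2 (r = 0.958), a neurotensin receptor, and Akr1c19 (r = 0.951), an aldo-keto reductase. The closest to Prodh were Cyp2j3 (r = 0.968), a cytochrome P450, Lcat (r = 0.952), the lecithin-cholesterol acyltransferase, and Calml4 (r = 0.948), a calmodulin-like gene. Ntsr2 had log2 levels of 8.37 and 8.81 in FGF9 cultures at 24 h, against 9.14 and 9.78 in control cultures. At 10 days it had 9.41 and 9.44 in FGF9 cultures, against 10.81 and 10.75 in control cultures. The arrays share treatment, time and prefix, so these coefficients describe likeness across the same few conditions.

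Related genes of amine and amino acid metabolism were counted over a list of 136, of which 122 were measured. At 24 h 12 of 122 (9.84%) were lower by over 0.5 log2 in both pairs and 3 (2.46%) were higher, beside 1.93% and 2.36% of all genes. At 10 days 10 of 122 (8.2%) were lower and 10 (8.2%) higher, beside 5.14% and 5.17% of all genes. Lower in both pairs by any amount were 67 (54.9%) at 24 h and 33 (27%) at 10 days, beside 32.9% and 30% of all genes. The median over the list was -0.11 at 24 h and 0.03 at 10 days, beside -0.00 and 0.02 over all genes. The list held no single direction at 10 days, when as many of its genes were higher as lower. Both FGF9 arrays lay below both control arrays for 35 of 122 (28.7%) at 24 h and 18 (14.8%) at 10 days, beside 14.5% and 11.3% of all genes. Limma called 0 of 122 without a block at either time, with 4 at 24 h and 10 at 10 days at an unadjusted p under 0.05. With the block it called 0 at 24 h, with 28 at an unadjusted p under 0.05, and 13 at 10 days, of which 7 fell (5.74%) and 6 rose (4.92%), beside 3.31% and 3.12% of all genes.

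Among monoamine genes, Sult1a1, a sulfotransferase of phenols, differed by -1.65 ± 1.24 at 24 h and -2.71 ± 1.24 at 10 days (SE, n = 2 per group), with pairs of -3.19 and -2.24 at 10 days. At 10 days it fell in the block fit (limma adjusted p of 0.0214; 0.96 without a block). Aldh2, the mitochondrial aldehyde dehydrogenase that clears the aldehydes made by monoamine oxidases, differed by -0.74 ± 0.48 at 24 h. Hnmt, which methylates histamine, differed by -0.97 ± 0.62 at 10 days. The monoamine breakdown list, of 10 measured genes, had a median of -0.19 at 24 h and -0.01 at 10 days. The list of 11 synthesis and uptake genes had medians of 0.00 and 0.03 at these times.

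Of the GABA genes, all 6 measured were lower in both pairs at 24 h, with a median of -0.40. At 10 days 3 were lower in both pairs, with a median of -0.53, beside 32.9% (24 h) and 30% (10 days) of all genes. The pair medians were -0.18 and -0.58 at 24 h and -0.62 and -0.10 at 10 days. At 24 h 1 of the 6 was lower by over 0.5 log2 in both pairs, and at 10 days 2 were. Gad2 and Gad1, which make GABA in neurons, differed by -1.12 ± 0.60 and -0.84 ± 0.33 at 10 days and fell in the block fit (limma adjusted p of 0.021 and 0.0316; 1 and 0.87 without a block). Slc6a13, a GABA transporter, differed by -0.85 ± 1.61 at 24 h, and Slc6a11, the GABA transporter of astrocytes, by 1.06 ± 0.59 at 10 days (SE, n = 2 per group). At 10 days Slc6a13 was at -2.76 and 1.06 in the pairs. It is also in the fibroblast, pericyte and meningeal list. The summed linear level of the 12 neuron markers, in log2, was 13.93 and 14.63 in FGF9 cultures at 10 days, against 14.62 and 15.45 in control cultures. The part of neurons in the values of Gad1 and Gad2 was not tested. Proline genes (8 measured) had a median of -0.12 at 24 h and -0.08 at 10 days. Pycr1, which makes proline, differed by 0.92 ± 0.80 at 10 days and Slc36a1, a proton-coupled transporter of small amino acids, by -0.76 ± 0.74 (SE, n = 2 per group), where Slc36a1 fell in the block fit (limma adjusted p of 0.0482; 1 without a block).

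Glutamate and glutamine genes (17 measured) had medians of -0.06 at 24 h and 0.10 at 10 days. Slc1a5, a glutamine and neutral amino acid transporter, was higher by 1.62 ± 0.72 at 24 h and by 1.70 ± 0.72 at 10 days, where it rose in the block fit (limma adjusted p of 0.0381; 0.905 without a block). Slc1a2, the main astrocytic glutamate transporter, differed by -0.81 ± 0.38 at 24 h and Slc1a3, the other, by 0.66 ± 0.38 at 10 days (SE, n = 2 per group). These transporters are also in the astrocyte list. Of the glycine and serine genes (17 measured, medians -0.03 and 0.12), Phgdh, the first step of serine synthesis, differed by -0.67 ± 0.39 at 24 h and Shmt1, a serine hydroxymethyltransferase, by 1.02 ± 0.55. At 10 days Psat1, of serine synthesis, differed by -0.81 ± 0.44, Slc6a5, a neuronal glycine transporter, by -1.07 ± 0.89 and Sardh, the sarcosine dehydrogenase, by 1.03 ± 0.24. In the block fit Slc6a5 fell and Sardh rose (limma adjusted p of 0.0199 and 0.0408; 1 and 0.536 without a block).

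Breakdown of branched-chain amino acids had 14 of 16 measured genes lower in both pairs at 24 h, with a median of -0.21, against 2 of 16 at 10 days, with a median of 0.14, beside 32.9% and 30% of all genes. By over 0.5 log2 in both pairs, 2 of the 16 were lower at 24 h and 0 at 10 days, and neither was called by limma in either fit. Mccc2, of leucine breakdown, and Aldh6a1, of valine breakdown, differed by -0.75 ± 0.27 and -0.61 ± 0.22 at 24 h, and Bckdha, of the branched-chain ketoacid dehydrogenase, by 0.62 ± 0.98 at 10 days (SE, n = 2 per group). Among lysine, tryptophan and aromatic amino acid genes (15 measured, medians -0.07 and -0.04), Aadat, a kynurenine and aminoadipate aminotransferase, differed by -1.01 ± 0.31 at 24 h and -0.82 ± 0.31 at 10 days. Fah, the last enzyme of tyrosine breakdown, differed by -0.58 ± 0.55 at 24 h. This list and the branched-chain list had no gene called at 10 days in the block fit.

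Sulphur amino acid, arginine and polyamine genes (22 measured) had medians of 0.01 at 24 h and 0.18 at 10 days. Cbs, the cystathionine beta-synthase, differed by -1.40 ± 0.34 at 24 h, with -0.95 and -1.85 in the pairs, while Smox, a spermine oxidase, differed by -0.81 ± 0.51 and Gamt, of creatine synthesis, by -0.74 ± 0.50. Srm, the spermidine synthase, differed by 0.72 ± 0.33 at 24 h and 0.88 ± 0.33 at 10 days. At 10 days Gatm (creatine synthesis), Cth (cysteine synthesis) and Csad (taurine synthesis) differed by 1.22 ± 0.30, 1.16 ± 0.19 and 0.96 ± 0.29, whereas Nos1, the neuronal nitric oxide synthase, and Ass1, of arginine synthesis, differed by -0.97 ± 0.50 and -0.86 ± 0.29 (SE, n = 2 per group). In the block fit at 10 days Gatm, Cth, Csad and Srm rose and Nos1 and Ass1 fell, with limma adjusted p between 0.0237 and 0.0451, against 0.328 to 1 without a block.

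**Figure D4:**
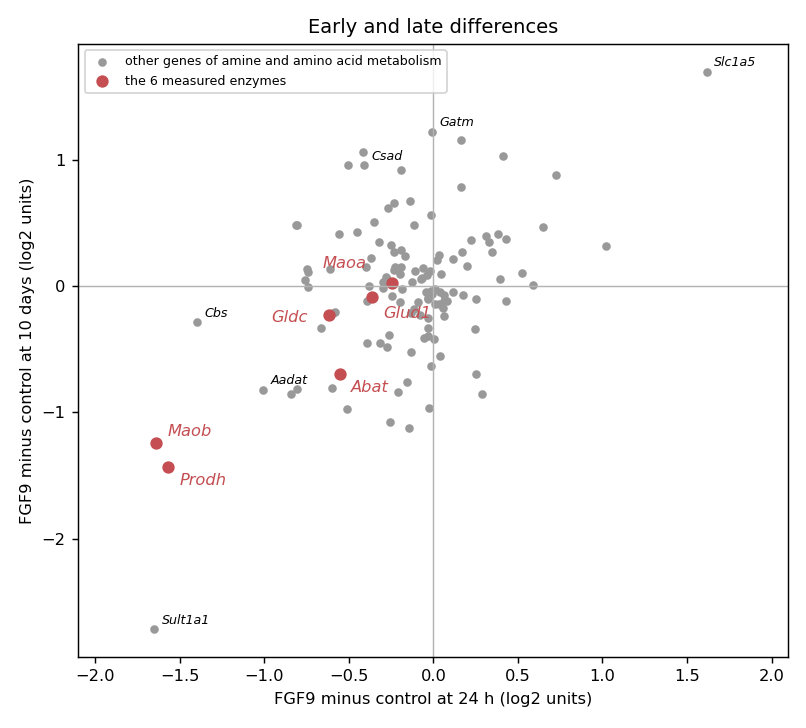
FGF9 minus control at 24 h (horizontal axis) against 10 days (vertical axis), both in log2 units and as means of both pairs, for the 6 enzymes (red) and the 122 related genes (grey). Maob and Prodh lie at the lower left at -1.64 and -1.24, and -1.57 and -1.43, with Sult1a1 beyond them at 10 days.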

How the data were processed

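The data are 8 Affymetrix Rat Gene 1.0 ST arrays of total RNA. The deposited table holds log2 values, a scale read from the values themselves. The submitters' processing notes name Partek 6.5 and GCRMA and give no other step. As usually run, GCRMA corrects background, normalizes quantiles between arrays and summarizes probes. No further normalization was applied. Groups and replicate numbers came from the titles. Of 29214 features, 15310 have 1 gene symbol, 323 several and 13581 none; the feature of highest mean per gene gave 14506 genes. Promoter windows came from RefSeq (GRCr8).

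Differences were fitted with limma 3.58.1 in R 4.3.3 (lmFit and eBayes, 4 group means, 4 residual degrees of freedom). Adjusted p-values are Benjamini-Hochberg values for all 14506 genes, called under 0.05. A second fit had the name prefix, whose meaning is not stated, as a block (2 residual degrees of freedom). In it the level between times, averaged over both treatments, comes from CL2 alone, since CL1 was present only at 24 h and AA1 only at 10 days. The estimate per treatment also uses the FGF9 differences of all pairs. Paired arrays deviated together from their group means, with a correlation of 0.757 (24 h) and 0.819 (10 days), and the block, which gave 933 calls at 10 days, lowered the median residual SD to 0.145, against 0.30 without it. The other settings tried were array medians subtracted, quantile normalization, a filter on dim genes, averaged features and each array left out. The fits were also run on data simulated from the block model with independent noise. Such data cannot show whether the prefix is a true block, since the simulation assumes it.

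The enzymes and the lists were chosen with earlier results of these data known. The text names all enzymes of the set, related genes past 0.5 log2 in both pairs (at most the 4 largest per list and direction), the 3 genes most correlated with Maob and with Prodh, and Gfap, Aqp4 and Mbp. S100b, Gjb6, Aldh1l1, Stra6, Igfbp3 and Cdo1 lie outside this rule and were named after their values were seen. The number of arrays limits the precision.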

Additional observations from a re-analysis of the deposited data

Results flagged for a closer look

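Among the 122 related genes, the FGF9 difference of 31 had one sign in both pairs at 24 h and the opposite sign in both at 10 days. The share of all genes with such a turn was not counted, so the 31 is not read as a trait of these genes. Of the 31, 8 also passed the size rule of 0.5 log2 units in both pairs at one of the times. For those 8 the difference at 10 days minus that at 24 h was 1.29 for Slc1a2, 1.30 for Smox, 0.85 for Gamt, 1.48 for Slc6a11, 0.89 for Slc1a3, 0.89 for Bckdha, 1.37 for Csad and -1.14 for Ass1, on the log2 scale. The test of this difference in limma called none of them, with an adjusted p of 1.00 for each without a block and between 0.173 and 0.253 with the prefix as a block, a fit that gave 933 calls for FGF9 against control at 10 days. Over all genes that test called 0 without a block (276 at an unadjusted p under 0.05) and 7 with it.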

How the results depend on the processing

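Of 336 recomputed differences of the 6 enzymes, 24 turned sign: 8 of Maoa, 7 of Abat, 7 of Glud1, 2 of Gldc and 0 of Maob and Prodh. For 10 days minus 24 h in control cultures the block and the block without the AA1 pair gave 0.26 and 0.29 for Maoa, -0.21 and -0.13 for Abat and 0.32 and 0.32 for Glud1, and the block gave -0.0027 for Gldc. In FGF9 cultures they gave -0.35 and -0.43 for Abat. As arrays were left out in turn, the difference between times in FGF9 cultures ran from -0.13 to 0.66 for Maoa, -0.44 to 0.98 for Abat and -0.18 to 0.48 for Glud1, and in control cultures from -0.48 to 0.45, -0.15 to 0.97 and -0.45 to 0.19. FGF9 minus control at 10 days ran from -1.41 to 0.02 for Abat (0.0194 without FGF9 replicate 1), -0.44 to 0.49 for Maoa, -0.41 to 0.25 for Glud1 and -0.56 to 0.10 for Gldc. Leaving out 1 array unbalances the prefixes. For Maob over time in FGF9 cultures the block gave 1.44, and 1.51 without the AA1 pair. These values are a description, since arrays that enter them also chose Maob. Both fits take the level between times, averaged over both treatments, from the CL2 arrays, so they are not separate evidence. With the prefix as a replicate block limma called 933 genes for FGF9 at 10 days, 1589 for time in FGF9 cultures, 1 for time in control cultures and 13 related genes at 10 days, each 0 without it. Alternatives added after seeing the data were the block without the AA1 pair and the CL2 pair alone. Without AA1 the block fit called 237 genes at 24 h, 569 at 10 days, 2406 for time in FGF9 cultures and 2 for time in control cultures (Igfbp3 and Stra6), with 1 related gene at 24 h (Cbs) and 9 at 10 days. By the CL2 pair alone 20 related genes were lower and 16 higher by over 0.5 log2 at 10 days, against 11.1% and 9.8% of all genes, since 1 pair had to pass in place of both. Subtracting array medians left 2 of the 6 enzymes lower by the size rule at each time. That rule needs both pairs, so it was not run with an array left out. Leaving out any array gave 0 limma calls in each contrast.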

Other observations

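Over time in FGF9 cultures, the limma fit with the prefix as a block called 29 of the 122 related genes, 18 higher at 10 days than at 24 h (14.8%, beside 4.88% of all genes) and 11 lower (9.02%, beside 6.07%). The fit without the block called 0, with 24 at an unadjusted p under 0.05. Genes named here were chosen after their values were seen. Those that rose in the block fit include Smox, a spermine oxidase, by 2.05 ± 0.18 (SE), Cdo1, a cysteine dioxygenase, by 2.01 ± 0.29, Cbs by 1.91 ± 0.31, Gamt by 1.58 ± 0.16 and Slc1a2, a glutamate transporter, by 1.41 ± 0.24. Those that fell include the neuronal glycine transporter Slc6a5, at -2.08 ± 0.17, and Gad2, at -1.64 ± 0.18. Without the block the same differences were 1.95 for Smox, 2.23 for Cdo1, 1.55 for Cbs, 1.57 for Gamt, 1.90 for Slc1a2, -0.60 for Slc6a5 and -0.66 for Gad2. Their limma adjusted p lay between 0.0113 and 0.0229 with the block and between 0.181 and 0.899 without it. The block fit takes the level between times, averaged over both treatments, from CL2 alone, a single array per group. The 29 calls rest on that level and on the FGF9 differences of all pairs. In FGF9 cultures Slc6a5 had 9.31 and 10.27 at 24 h, against 8.22 and 10.17 at 10 days. Gad2 had 10.28 and 11.01, against 9.47 and 10.49, so for both genes the arrays of the 2 times overlapped.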
